A study of Mus musculus with 4 samples.

Results

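The genes described here are 10 transcripts of the iNKT17 signature, among 31053 genes counted in single thymic invariant natural killer T (iNKT) cells. They are 5830411N06Rik (also called Scart2), Pcsk1, Vax2, Blk, Serpinb1a, Tmem176a, Tmem176b, Sdc1, Il17re and Il1r1. They were chosen by symbol from values of these same libraries, either as genes high in iNKT17 cells or as genes that differed between genotypes there. Their height in iNKT17-like cells and their genotype difference within those cells are therefore a description and carry no test. All 10 were in the matrices and are accounted for below.

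CD1d tetramer-binding thymocytes were sorted as a mix of equal parts CD44low and CD44high cells, and their transcripts were counted as unique molecular identifiers (UMIs) with a droplet kit that reads the 5' end. Each library came from 1 mouse. The groups were untreated wildtype C57BL/6 mice (2 libraries) and untreated Hivep3-/- mice (2 libraries), which were backcrossed to C57BL/6, carry a knockout of the zinc finger gene Hivep3 by their label, and were 8 to 9 weeks old like the controls. The comparison asks what the loss of Hivep3 changes in these cells, and here how closely the 10 genes kept to iNKT17 cells in each genotype.

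The libraries held 31381738 to 48291764 UMIs, and 19647 cells passed the filters (3651 to 7231 per library, with medians of 4596 and 5268 UMIs per cell in C57BL/6 and 6833 and 6491 in Hivep3-/-). C57BL/6 replicate 1 stood apart in sex-linked transcripts, with 14609 Xist UMIs and 0 UMIs of 4 Y-linked genes, against 3 to 25 and 3568 to 4879 in the other libraries, so results are also given without it. Among kept cells, 185 barcode sequences occurred in a pair of libraries. Hivep3 itself was counted at 255 and 317 UMIs per 1000000 UMIs (CPM) in C57BL/6 and at 635 and 316 CPM in Hivep3-/- stage 0-like cells. In cycling-, iNKT2- and iNKT1-like cells both Hivep3-/- libraries were above both C57BL/6 libraries (118 and 70.5 against 33.0 and 35.2 CPM in cycling-like cells), and in iNKT17-like cells all 4 lay between 8.26 and 19.3 CPM. A 5' count does not tell which exons a transcript holds, so this does not check the genotype labels.

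iNKT cells leave an early precursor stage (stage 0), divide, and become iNKT1, iNKT2 or iNKT17 cells. iNKT17 cells carry receptors for interleukin 23 and interleukin 1, and secrete interleukin 17. HIVEP proteins bind DNA through zinc fingers and were first described as binders of kappaB enhancer motifs. The 10 genes hold several roles. Il17re and Il1r1 are cytokine receptor chains, Sdc1 (CD138) is a heparan sulfate proteoglycan used to stain iNKT17 cells, and Tmem176a and Tmem176b encode related membrane proteins with 4 spans. Blk is a Src family kinase best known from B cells, Serpinb1a inhibits neutrophil-type serine proteases, and Pcsk1 encodes proprotein convertase 1, which trims hormone precursors in endocrine cells. Vax2 is a homeobox transcription factor of the ventral eye, and 5830411N06Rik encodes a membrane protein with scavenger receptor cysteine-rich domains.

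The stretch upstream of the first annotated exon is shown for 5830411N06Rik and Pcsk1, whose levels differed between genotypes in several cell classes, and for Cd163l1, the neighbour and relative of the first. The letters are those of RefSeq on GRCm38.p6, the build of the files (mm10). All 3 genes lie on the plus strand, and each run is written 5' to 3' and ends at the base before the first exon in the GENCODE annotation. Capitals mark the letters AGGTCA, a half-site bound by many nuclear receptors, or its reverse complement, and the kappaB-like pattern GGGNNNNNCC on either strand.
5830411N06Rik, chr7:140247051-140247283: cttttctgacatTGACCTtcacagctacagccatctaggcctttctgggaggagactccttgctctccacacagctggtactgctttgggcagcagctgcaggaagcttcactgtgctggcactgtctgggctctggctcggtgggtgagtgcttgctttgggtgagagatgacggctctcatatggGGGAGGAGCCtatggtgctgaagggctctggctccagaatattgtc
Cd163l1, chr7:140218017-140218266: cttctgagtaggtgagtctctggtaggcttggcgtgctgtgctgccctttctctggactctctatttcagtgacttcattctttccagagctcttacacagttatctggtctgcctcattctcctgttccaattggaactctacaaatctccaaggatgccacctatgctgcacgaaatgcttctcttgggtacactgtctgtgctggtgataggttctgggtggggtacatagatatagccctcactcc
Pcsk1, chr13:75089607-75089825: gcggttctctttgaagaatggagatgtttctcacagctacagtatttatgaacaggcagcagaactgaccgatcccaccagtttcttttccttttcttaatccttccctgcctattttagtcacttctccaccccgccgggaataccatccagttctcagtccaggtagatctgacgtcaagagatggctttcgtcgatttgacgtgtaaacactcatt

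In the 233 bases upstream of 5830411N06Rik, the reverse complement of AGGTCA began at base 13 and ended 215 bases before the exon, and 1 match to GGGNNNNNCC began at base 188 and ended 36 bases before it. The stretches of Cd163l1 (250 bases) and Pcsk1 (219 bases) held neither. Windows of 300 bases (250 before and 50 after a start) were listed for 7 of the 10 genes, 13 windows in all. An AGGTCA match stood in windows of 1 of the 7 genes, 5830411N06Rik, and a GGGNNNNNCC match in windows of 5. Among all 32851 listed windows, 16.3% held AGGTCA and 50.8% held GGGNNNNNCC, so both patterns are common.

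Clustering, which left all 10 genes out, gave 1 iNKT17-like cluster of 222, 127, 129 and 130 cells in C57BL/6 replicates 1 and 2 and Hivep3-/- replicates 1 and 2, which was 2.81 to 3.48% of each library's cells. Among its leading genes were Pxdc1, Il23r, Ccr6, Actn2, Il17a and Aqp3, all on the list of 14 iNKT17 markers that named it. All 14 markers had UMIs in it in every library, as they also had in cycling-like cells of both C57BL/6 libraries. Ccr6 stood at 70.9 to 137 CPM in iNKT17-like cells and at most at 0.804 CPM in the stage 0-, cycling-, iNKT2- and iNKT1-like classes. Other markers of the list were less confined: Il7r stood at 1090 to 1587 CPM in iNKT17-like and 730 to 989 CPM in iNKT1-like cells, and Cd163l1 was lower in iNKT17-like than in iNKT1-like cells of both Hivep3-/- libraries (8.42 and 7.98 against 11.5 and 10.5 CPM). Of the markers of other cells, Cd79a, Ms4a1, Pax5, Ebf1, Jchain, Igkc, Lyz2, Csf1r and all 3 neutrophil markers had 0 UMIs in the class, and 3 of 8 B cell markers (Cd79b, Ighm and Cd74) summed to 57.6 to 78.6 CPM. Only Cst3 of the 7 myeloid markers had UMIs, with 275, 282, 292 and 383 in the libraries in the order above. The myeloid markers summed to 212 to 340 CPM there. In the stage 0-, cycling-, iNKT2- and iNKT1-like classes they summed to 110 to 174 CPM. The epithelial marker Epcam had 3 or 4 UMIs per library. Of 7 gamma-delta T cell markers, 5 or 6 had UMIs, mostly Tcrg-C1, Tcrg-C2 and Tcrg-V4, while Trdc had 0 to 2 UMIs per library. Their summed level was 404 to 587 CPM.

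The genes differed widely in how far they kept to iNKT17-like cells, a class that held 2.88 to 4.27% of each library's UMIs. Il1r1, Serpinb1a, Il17re, Vax2, Blk and Sdc1 had most of their UMIs there in every library, Tmem176a and Tmem176b just over 50% in the lowest library, and Pcsk1 and 5830411N06Rik under 50% in every library. The mean share was 92.7% ± 4.52 for Il1r1, 90.0% ± 1.68 for Serpinb1a, 85.1% ± 13.6 for Il17re, 81.4% ± 11.6 for Vax2, 77.2% ± 11.8 for Blk and 72.9% ± 6.08 for Sdc1 (SD, n = 4 libraries). Tmem176a followed with 61.4% ± 8.34 and Tmem176b with 56.5% ± 7.34. Pcsk1 had 32.5% ± 8.67, and 5830411N06Rik had the lowest share with 20.9% ± 4.55. In that order neighbours overlapped within their SD except Tmem176b and Pcsk1. The median share over the 10 genes was 75.1%. Such a share also depends on how many cells the other classes hold. By CPM, iNKT17-like cells stood 3.39- to 5.03-fold above the next class for Pcsk1 and 4.68- to 6.23-fold for 5830411N06Rik.

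**Figure D1:**
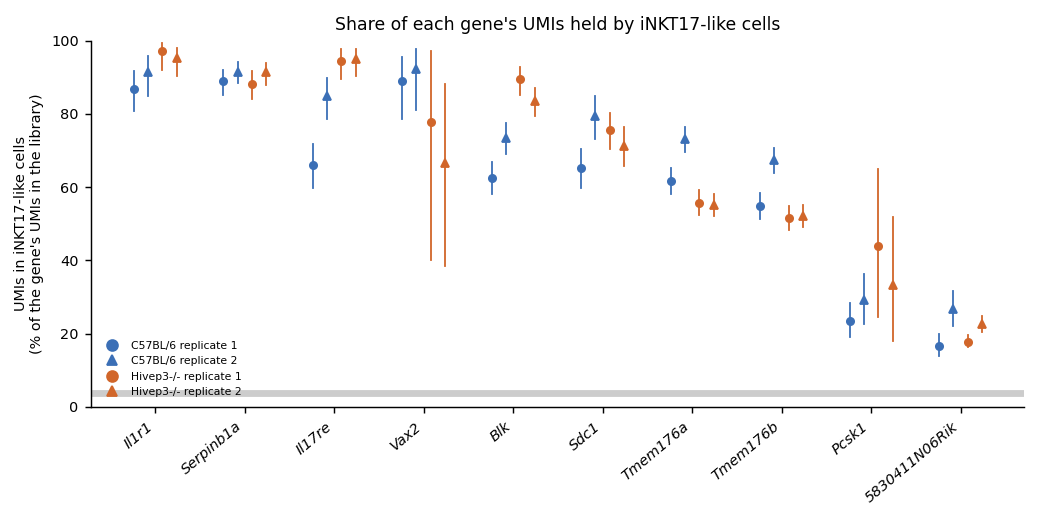
Percent of each gene's UMIs in kept cells that lay in iNKT17-like cells (y axis), by gene (x axis, ordered by mean) and library (points), with exact Clopper-Pearson 95% intervals (bars) that cover counting error only. The grey band is the class's share of all UMIs, 2.88 to 4.27%. Every point lies above it, from 16.7% for 5830411N06Rik in C57BL/6 replicate 1 to 97.2% for Il1r1 in Hivep3-/- replicate 1.

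Of the cytokine receptor chains, Il1r1 transduces interleukin 1 signals and lies on chromosome 1 from 40225080 to 40317257 (plus strand). It was counted at 112 and 98.2 CPM in C57BL/6 and at 96.3 and 122 CPM in Hivep3-/- iNKT17-like cells. The 4 libraries overlapped between genotypes. The next class in each library lay at 0.393 to 0.965 CPM, 102- to 245-fold lower, and stage 0-like cells had 0 UMIs in all 4 libraries (3 UMIs, the limit that a count of 0 allows, would be 1.25 to 4.24 CPM).

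Il17re, the receptor chain that binds interleukin 17C, lies on chromosome 6 from 113458484 to 113470758 (plus strand). Its level in iNKT17-like cells was 124 and 139 CPM in C57BL/6 and 130 and 133 CPM in Hivep3-/-, again overlapping. In cycling-like cells it stood at 3.27 and 3.54 CPM in C57BL/6 against 0.393 and 0.395 CPM in Hivep3-/-. The share of its UMIs in iNKT17-like cells was 66.0 and 84.8% in C57BL/6 and 94.6 and 94.9% in Hivep3-/-.

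Sdc1 (chromosome 12, 8771323 to 8793715, plus strand) was counted at 159 and 139 CPM in C57BL/6 and 218 and 181 CPM in Hivep3-/- iNKT17-like cells. The genotypes did not overlap there, Hivep3-/- being the higher. Its next class was cycling-like cells in every library, at 4.02 to 5.93 CPM, and iNKT1-like cells held 0 to 3 Sdc1 UMIs per library. The plasma cell markers that could accompany Sdc1 were at 0 in the iNKT17-like class except Derl3, with 2, 6, 9 and 12 UMIs in the 4 libraries.

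Tmem176a (chromosome 6, 48840919 to 48847071, plus strand) and Tmem176b (48833818 to 48841496, minus strand) lie head to head and overlap by 578 bases at their 5' ends. The sources used here do not say whether counting used strand, so reads of the overlap may have been divided between them. Tmem176a was counted at 335 and 474 CPM in C57BL/6 and 445 and 508 CPM in Hivep3-/- iNKT17-like cells. Tmem176b followed at 349, 474, 449 and 520 CPM in the same order, and the genotypes overlapped for both. In iNKT1-like cells Tmem176a was at 7.96 and 10.4 CPM in C57BL/6 and 15.9 and 24.1 CPM in Hivep3-/-. Tmem176b was there at 7.96 and 13.0 CPM in C57BL/6 and 18.6 and 28.0 CPM in Hivep3-/-. Both Hivep3-/- libraries were above both C57BL/6 libraries for each gene, and none of the other 4 named classes exceeded 5.38% of the iNKT17-like level in its own library. Unnamed cluster 3 held more in Hivep3-/- replicate 2, at 41.0 CPM of Tmem176a and 43.0 CPM of Tmem176b.

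Among the enzymes and inhibitors, Blk (chromosome 14, 63372836 to 63417037, minus strand) stood at 239 and 309 CPM in C57BL/6 and 231 and 291 CPM in Hivep3-/- iNKT17-like cells, with overlapping genotypes. Its next class was iNKT2-like cells in all 4 libraries, at 7.18 and 9.95 CPM in C57BL/6 and 1.94 and 10.8 CPM in Hivep3-/-. Only 16 kept cells had 2 or more B cell markers, none of them iNKT17-like, and without them the mean share of Blk UMIs in iNKT17-like cells was 78.4%.

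Serpinb1a (chromosome 13, 32842092 to 32851185, minus strand) had 241 and 329 CPM in C57BL/6 and 238 and 290 CPM in Hivep3-/- iNKT17-like cells. The genotypes overlapped, and the next class in each library was 70.8- to 195-fold lower. Its share in iNKT17-like cells varied least of the 10 genes, from 88.2 to 91.6%.

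Pcsk1 (chromosome 13, 75089826 to 75134861, plus strand) was split among 3 classes. In iNKT17-like cells it had 60.1 and 48.6 CPM in C57BL/6 and 10.3 and 9.75 CPM in Hivep3-/-. iNKT2-like cells stood at 11.9 and 12.1 CPM in C57BL/6 and 2.91 and 2.88 CPM in Hivep3-/-. In cycling-like cells the values were 5.84 and 10.1 CPM in C57BL/6 and 0.393 and 1.19 CPM in Hivep3-/-. The libraries of the genotypes did not overlap in any of the 3 classes, and the iNKT17-like level was 3.39- to 5.03-fold that of iNKT2-like cells in every library. iNKT1-like cells, the most numerous class, held 0 to 2 Pcsk1 UMIs per library.

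Vax2 (chromosome 6, 83711264 to 83738313, plus strand) was rare, with 57 and 47 UMIs in C57BL/6 and 7 and 10 UMIs in Hivep3-/- iNKT17-like cells, or 43.9, 43.1, 6.55 and 8.87 CPM. The genotypes did not overlap there. Outside that class no library held more than 5 Vax2 UMIs in any of the other 4 classes.

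The scavenger receptor gene 5830411N06Rik (chromosome 7, 140247284 to 140300736, plus strand) had the broadest pattern. iNKT17-like cells held 110 and 95 UMIs in C57BL/6 and 387 and 337 UMIs in Hivep3-/-, or 84.8, 87.2, 362 and 299 CPM. iNKT1-like cells held 170 and 131 UMIs in C57BL/6 and 1456 and 766 UMIs in Hivep3-/-, or 16.9, 14.0, 77.3 and 58.5 CPM. In both classes each Hivep3-/- library was above each C57BL/6 library. iNKT2-like cells stood at 17.2 and 11.0 CPM in C57BL/6 and 36.1 and 51.6 CPM in Hivep3-/-. Cycling-like cells stood at 6.96 and 6.92 CPM in C57BL/6 and 5.89 and 4.15 CPM in Hivep3-/-, and stage 0-like cells held 1 UMI in all libraries together. The level in iNKT1-like cells was 16.1 to 21.4% of that in iNKT17-like cells of the same library, and the share of its UMIs in iNKT17-like cells was 16.7 and 26.6% in C57BL/6 and 17.8 and 22.5% in Hivep3-/-. These shares overlapped between the genotypes.

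**Figure D2:**
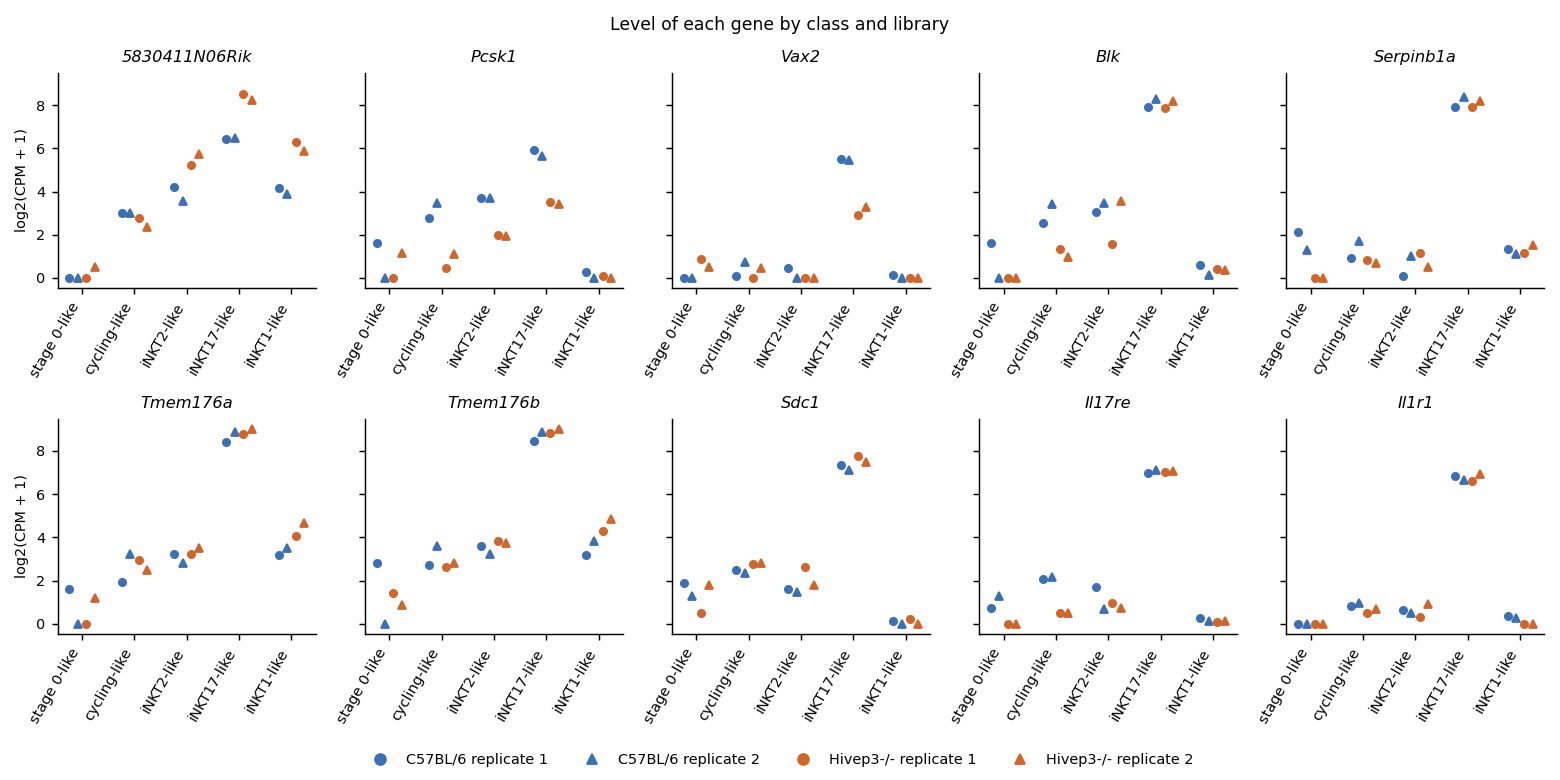
Level of each of the 10 genes (y axis, log2 of CPM + 1) by class (x axis) and library (points; colour gives the genotype and shape the replicate). All 10 genes are highest in iNKT17-like cells in every library; 5830411N06Rik and Pcsk1 have the smallest ratio of CPM to the next class in each library, 3.39 to 6.23, and 5830411N06Rik is higher in Hivep3-/- in 3 classes.

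The clusters within the iNKT1-like class were looked at one by one for 5830411N06Rik. In the largest, cluster 0, the level was 13.0 and 15.2 CPM in C57BL/6 and 86.7 and 87.8 CPM in Hivep3-/-. Cluster 2, led by Ccl5 and Gzma, stood at 20.1 and 22.5 CPM in C57BL/6 and 47.0 and 33.9 CPM in Hivep3-/-. In clusters 4 and 8 the C57BL/6 libraries lay between 7.04 and 23.9 CPM and the Hivep3-/- libraries between 51.7 and 94.8 CPM. The genotypes did not overlap in any of these 4 clusters, and the smallest iNKT1-like cluster held 0 UMIs.

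**Figure D3:**
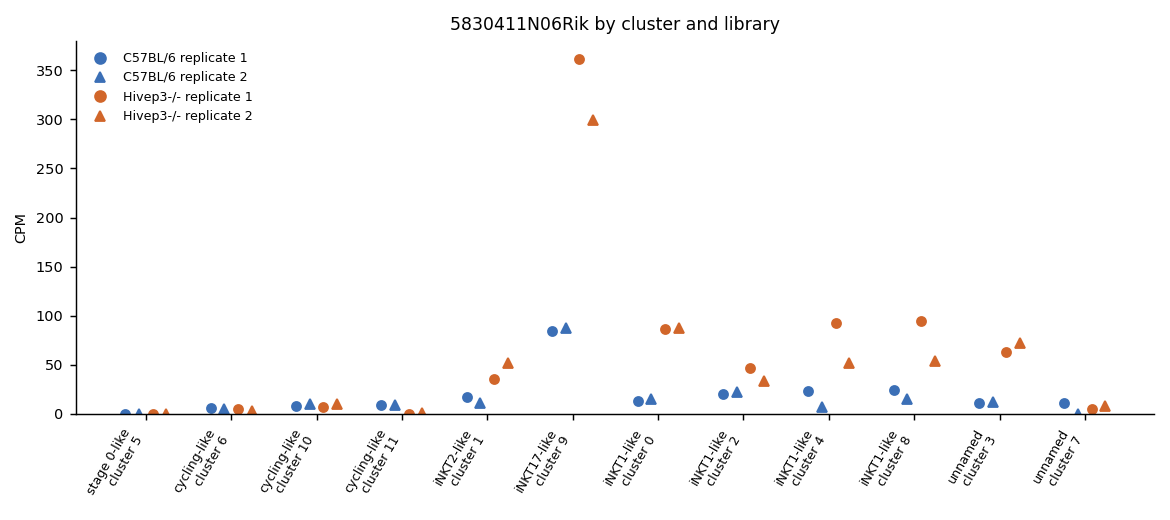
Level of 5830411N06Rik in CPM (y axis, linear) by cluster (x axis) and library (points); the 3 smallest clusters are not drawn. Hivep3-/- libraries lie above C57BL/6 libraries in the iNKT17-like, iNKT2-like and 4 iNKT1-like clusters, up to 362 CPM.

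Detection per cell was compared at equal depth, as the expected percent of cells with a UMI after thinning each cell to 2000 UMIs. In iNKT17-like cells 5830411N06Rik was detected in 12.2% ± 1.77 of cells in C57BL/6 and 36.7% ± 4.10 in Hivep3-/- (SD, n = 2; 20.8 and 56.4% unthinned). In iNKT1-like cells the shares were 2.67% ± 0.0654 and 10.4% ± 1.56 (4.53 and 21.0% unthinned). Stage 0-like cells, of a median 3361 to 5600 UMIs against 3412 to 6487 in iNKT1-like cells, gave 0% in C57BL/6 and 0.0681% in Hivep3-/-. Such shares can hold a background of free RNA, which was not measured. Tmem176a and Tmem176b were the most widely detected in iNKT17-like cells, in 48.7 and 50.9% of C57BL/6 and 56.6 and 55.0% of Hivep3-/- cells. Vax2 was detected in 7.41% and 1.41% and Pcsk1 in 7.56% and 1.96% in the same order. With 2 libraries against 2, the two-sided exact permutation test cannot give a p below 0.333, the value for each of these differences that did not overlap. Cells under 2000 UMIs were left out, 6 and 2 of the iNKT17-like and 262 and 54 of the iNKT1-like cells in C57BL/6 and Hivep3-/-.

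Several of the 10 genes were often counted in the same iNKT17-like cell, which follows from their choice as genes high in these cells. Whether they shared cells more often than their separate detection would give was not tested. After thinning, 50.2, 63.5, 52.3 and 65.9% of iNKT17-like cells in C57BL/6 replicates 1 and 2 and Hivep3-/- replicates 1 and 2 held UMIs of 3 or more of the 10 genes, with a median of 3 genes in each library. In the other 4 classes no library reached 1%. Of 361 cells with 3 or more, 341 were iNKT17-like. Of the other 20, 4 carried 2 or more UMIs in all over Ccr6 and Il23r, and 1 was among the 5% of highest doublet scores. In iNKT1-like cells 94.6 and 94.4% of C57BL/6 cells and 82.5 and 83.7% of Hivep3-/- cells held none of the 10 genes.

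**Figure D4:**
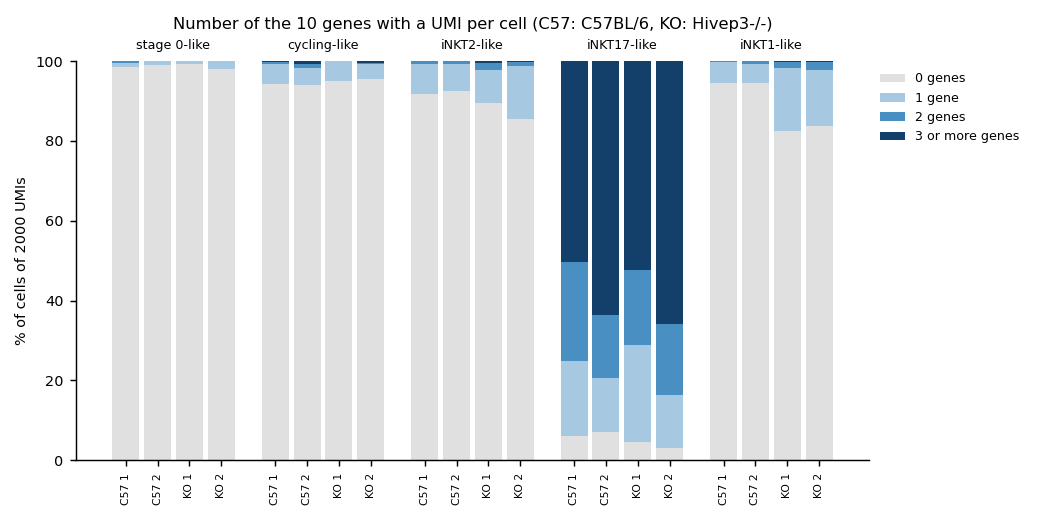
Percent of cells (y axis) with UMIs of 0, 1, 2 or 3 and more of the 10 genes after thinning to 2000 UMIs, by class and library (bars). Only iNKT17-like bars, at 50.2 to 65.9%, show the darkest shade at a visible height.

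Within iNKT17-like cells the genotype difference was one of the values by which the genes were picked, so it is described and not tested. The edgeR quasi-likelihood fit over 7584 genes called 5 genes (0.0659% of those tested; Benjamini-Hochberg adjusted p under 0.05), and 3 of them are among the 10. 5830411N06Rik was higher in Hivep3-/- by 1.87 on the log2 scale (SE 0.17), Pcsk1 differed by -2.50 (SE 0.30) and Vax2 by -2.54 (SE 0.34). Vax2 was not called without Hivep3-/- replicate 1 (log2 difference -2.31). In cells chosen by 2 or more UMIs over Ccr6 and Il23r in place of clustering, 5830411N06Rik was called and neither Pcsk1 (-2.21) nor Vax2 (-1.75) was. The other 7 genes lay between -0.17 (Serpinb1a) and 0.35 (Sdc1). The median of the 10 was -0.04, beside 0.01 over all genes tested. Fewer transcripts per cell and fewer cells holding the transcript cannot be told apart in such sums.

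The same contrast in the other classes had not been used to pick the genes, except that the rise of 5830411N06Rik in iNKT1-like cells had been seen before in these data. These classes come from the same mice as the iNKT17-like cells. Calls there of genes picked for a genotype difference are therefore not independent of that choice. In iNKT1-like cells 4 of the 10 genes had enough counts to be tested, and 1 was called, against 0.714% of 10640 genes. 5830411N06Rik rose by 2.05 on the log2 scale (SE 0.17, edgeR adjusted p = 0.00454), about as much as in iNKT17-like cells. Tmem176a (log2 difference 1.06, SE 0.28, edgeR adjusted p = 0.241) and Tmem176b (1.09, SE 0.31, edgeR adjusted p = 0.292) did not pass, though the libraries did not overlap. Without Hivep3-/- replicate 1 both had an edgeR adjusted p under the threshold (0.00817 and 0.0137). Such a fit holds 1 library of a genotype, which is assumed to vary like the other pair, so it does not replace the test over all libraries. Serpinb1a differed by 0.10 (SE 0.44). The call of 5830411N06Rik held without any 1 library. The median of the 4 tested genes was 1.07, beside 0.00 over all genes.

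In iNKT2-like cells 6 genes were tested and 1 was called, against 0.328% of 9748 genes. Pcsk1 fell by 2.13 on the log2 scale (SE 0.29, edgeR adjusted p = 0.0314), and its libraries did not overlap. It did not pass without Hivep3-/- replicate 1 (log2 difference -2.10, edgeR adjusted p = 0.0813) or with no correction between libraries in the clustering (-1.94, edgeR adjusted p = 0.07). 5830411N06Rik had a log2 difference of 1.52 (SE 0.28, edgeR adjusted p = 0.0912) and did not pass. With DESeq2 over the same libraries its adjusted p was 0.00128, and with 1 library left out, where a lone library is assumed to vary like the other pair, the edgeR adjusted p ranged from 2.98e-06 to 0.118. Blk, Tmem176a, Tmem176b and Sdc1 differed by -0.44, 0.28, 0.27 and 0.84, with edgeR adjusted p-values of 0.579 to 0.85. The median was 0.28, beside 0.03 over all genes.

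In cycling-like cells 7 genes were tested and 3 were called, all lower in Hivep3-/-, against 4.32% of 10240 genes. On the log2 scale Pcsk1 fell by 3.23 (SE 0.56, edgeR adjusted p = 0.0202), Il17re fell by 3.19 (SE 0.56, edgeR adjusted p = 0.0217) and Blk fell by 2.68 (SE 0.56, edgeR adjusted p = 0.0404). Blk stood at 4.80 and 9.65 CPM in C57BL/6 and 1.57 and 0.988 CPM in Hivep3-/-. For all 3 the libraries did not overlap, but without Hivep3-/- replicate 1 or without Hivep3-/- replicate 2 none of the 3 passed (edgeR adjusted p between 0.0826 and 0.185). With no correction between libraries in the clustering, Il17re (edgeR adjusted p = 0.101) and Blk (0.0899) did not pass. Il17re did not pass in DESeq2 either (adjusted p = 0.12), nor Blk at clustering resolutions of 0.4 and 1.2 (edgeR adjusted p = 0.0616 and 0.0511). 5830411N06Rik had a log2 difference of -0.67 (SE 0.31, edgeR adjusted p = 0.294), which became 0.04 at resolution 1.2 and 0.23 with no correction between libraries. Sdc1, Tmem176a and Tmem176b lay between -0.68 and 0.27 without passing. The median was -0.68, beside 0.03 over all genes.

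The make-up of the cycling-like class moved with these falls. The 8 iNKT2 markers summed to 1412 and 1449 CPM there in C57BL/6 and to 741 and 791 CPM in Hivep3-/-. The 10 stage 0 markers summed to 862 to 943 CPM in C57BL/6 and 1268 to 1511 CPM in Hivep3-/-, and the 14 iNKT17 markers to 617 to 664 and 655 to 744 CPM. The 20 iNKT1 markers stood at 870 to 1083 CPM in C57BL/6 and at 2727 to 5008 CPM in Hivep3-/-, and the 15 cycling markers at 4763 to 5756 and 6706 to 9581 CPM. The part of this make-up in the falls of Pcsk1, Il17re and Blk was not tested. In iNKT2-like cells the same iNKT2 markers summed to 1961 to 1979 CPM in C57BL/6 and 1421 to 1537 CPM in Hivep3-/-, beside the fall of Pcsk1 there. Beside the higher level of 5830411N06Rik in that class, the 20 iNKT1 markers summed to 1036 to 1255 CPM in C57BL/6 and 1619 to 1728 CPM in Hivep3-/-. The 14 iNKT17 markers summed to 828 to 972 and 1230 to 1423 CPM, and the 7 gamma-delta T cell markers to 192 to 226 and 372 to 426 CPM. Their part in these differences was not tested. In iNKT1-like cells the 20 iNKT1 markers summed to 12890 to 13820 CPM in C57BL/6 and 16870 to 17580 CPM in Hivep3-/-. There the 8 iNKT2 markers summed to 458 to 478 and 239 to 293 CPM. Gamma-delta T cell markers were at 141 to 239 and 269 to 313 CPM. In iNKT17-like cells the 14 iNKT17 markers summed to 3464 to 3640 and 4147 to 4229 CPM. The iNKT1 markers overlapped there, at 1716 to 2087 and 2023 to 2919 CPM. What these sums add to the genotype differences was not tested.

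In stage 0-like cells none of the 10 genes had enough counts to be tested (0.353% of 8772 genes were called), and no library held more than 9 UMIs of any of them. All calls named for the other 4 classes were also made without C57BL/6 replicate 1, the library that stood apart in sex-linked transcripts.

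**Figure D5:**
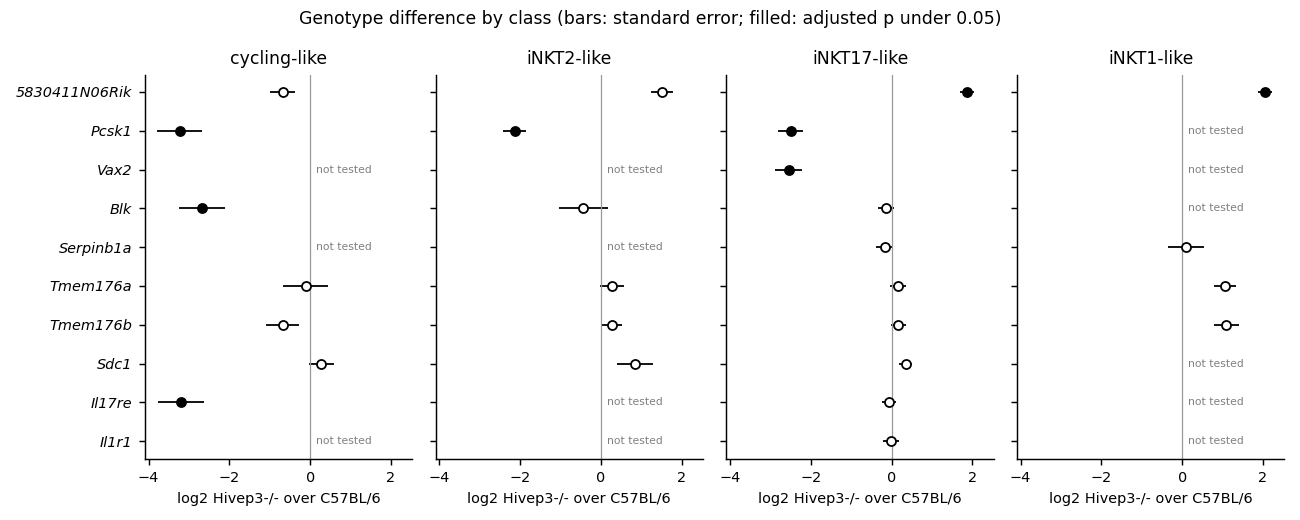
Log2 difference of Hivep3-/- over C57BL/6 (x axis) for each gene (y axis) in 4 classes (panels), with the standard error of the edgeR fit (bars). Filled points have an adjusted p under 0.05; in the iNKT17-like panel that contrast helped pick the genes. Pcsk1 is filled and left of 0 in 3 panels, from -3.23 to -2.13, and 5830411N06Rik is filled and right of 0 in 2.

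Whether the genotype difference itself differed between iNKT1-like and iNKT2-like cells was tested with the interaction term of one fit over the sums of both, in which the library was a block. Of the 10 genes 7 had enough counts for this fit and none passed in edgeR (3 had an unadjusted p under 0.05), while 5.98% of 11041 genes did. The difference of 5830411N06Rik was 0.57 larger in iNKT1-like cells on the log2 scale (SE 0.25, edgeR adjusted p = 0.214). For Tmem176a it was 0.87 larger (SE 0.28, edgeR adjusted p = 0.0854) and for Tmem176b 0.92 larger (SE 0.31, edgeR adjusted p = 0.0928). The term of 5830411N06Rik depended on the libraries. Dropping Hivep3-/- replicate 1 gave 0.14 (edgeR adjusted p = 0.816) and dropping Hivep3-/- replicate 2 gave 1.03 (1.51e-05). The C57BL/6 libraries gave 0.32 (0.634) when replicate 1 was dropped and 0.69 (0.00686) when replicate 2 was.

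The wider iNKT17 program was read against the share of all genes called in each class. Of 22 regulators and effectors of that program, among them Rora, Maf, Il17a and Ccr6, 19 were tested in iNKT17-like cells and none was called in either direction, where 0.0659% of all genes were, with a median log2 difference of 0.04. Of 23 genes of interleukin 17, 1 and 23 receptor families and their signalling, 15 were tested there and none was called. In iNKT1-like cells, where 0.714% of all genes were called, 2 of 14 tested program genes fell, the receptor Rora by 1.05 on the log2 scale (SE 0.15, edgeR adjusted p = 0.0349) and the factor Runx1 by 1.29 (SE 0.17, edgeR adjusted p = 0.0232), and none rose. In iNKT2-like cells none of 15 tested program genes was called, against 0.328% of all genes. Both counts of 0 lie at the background of their class and are no result about the program.

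In cycling-like cells 1 of 14 tested program genes rose and 6 fell, where 4.32% of all genes were called (232 higher and 210 lower). The aryl hydrocarbon receptor Ahr rose by 2.04 (SE 0.27), from 3.97 and 3.06 CPM to 15.7 and 17.2 CPM. Maf, Rora, Aqp3, Cxcr6, Ccr2 and Zbtb16 (which encodes PLZF) fell by 0.74 to 1.79 on the log2 scale, with edgeR adjusted p-values of 0.0094 to 0.0424. Of 17 receptor and signalling genes tested there, Il6st rose and Il17rb, Il18r1, Il12rb1 and Il6ra fell. Of 7 Src family relatives of Blk, 4 were tested in cycling-like cells, and Lyn (log2 difference 4.00, SE 0.38, edgeR adjusted p = 0.00194) and Fgr (2.07, SE 0.44, edgeR adjusted p = 0.0437) rose there while Blk fell. In stage 0-like cells Zbtb16, Cxcr6 and Ccr2 fell by 1.56 to 2.73.

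Relatives of the other genes were mostly not called, but few were tested. The Serpinb, syndecan and proprotein convertase genes had 3, 0 and 3 members tested in iNKT17-like cells, with none called. In each of the cycling-, iNKT2- and iNKT1-like classes 3, 1 and 4 were tested, with none called. Over all genes 0.0659, 4.32, 0.328 and 0.714% were called in the iNKT17-, cycling-, iNKT2- and iNKT1-like classes. Counts of 0 among so few genes are no result about these families. No homeobox relative of Vax2 had enough counts in any class. Ms4a4b, a membrane protein with 4 spans like Tmem176a, rose in cycling-like cells by 1.98 (SE 0.16, edgeR adjusted p = 0.000882) and in iNKT2-like cells by 1.52 (SE 0.16, edgeR adjusted p = 0.0109). Ms4a4b is also among the 20 iNKT1 markers, whose sums were higher in Hivep3-/- in both of these classes.

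Of the scavenger receptor relatives of 5830411N06Rik, Cd163l1 was called in iNKT1-like cells. It is the nearest gene on its 5' side, ending 16138 bases before it on the same strand, and reads of sequence that the 2 relatives share could have been divided between them. iNKT1-like cells held 10 and 21 Cd163l1 UMIs in C57BL/6 and 216 and 138 in Hivep3-/-, or 0.994, 2.24, 11.5 and 10.5 CPM. It rose there by 2.70 (SE 0.34, edgeR adjusted p = 0.0217), with no overlap. In iNKT17-like cells Cd163l1 went the other way from 5830411N06Rik, with 25 and 27 UMIs in C57BL/6 and 9 and 9 in Hivep3-/- (log2 difference -1.47, SE 0.38, edgeR adjusted p = 0.403), which did not pass. In iNKT2-like cells it held 79 and 27 UMIs in C57BL/6 and 12 and 19 in Hivep3-/- (log2 difference -0.79, edgeR adjusted p = 0.51).

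The other 9 of the 10 nearest genes were Sprn and 8 olfactory receptor genes. In iNKT1-like cells only Olfr523 of these 9 had enough counts to be tested, with 0 and 4 UMIs in C57BL/6 and 26 and 28 in Hivep3-/- (log2 difference 2.94, SE 0.85, edgeR adjusted p = 0.306), which did not pass. The other 8 held 0 to 4 UMIs per library there.

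The patterns of the 10 genes were also set against all other genes over 20 sums (5 classes in 4 libraries), by Pearson's r of log2(CPM + 1) among 7343 genes of at least 20 CPM in 1 sum. These points share libraries and depths, so r is a description. Il1r1 was most like Ccr6 (r = 0.993) and Il23r (0.991), and Serpinb1a most like Lrrc25 (0.985), Ccr6 (0.984) and Il23r (0.983). Il17re came closest to Il17a (0.986), Blk to Nr1d1 (0.970) and Pxdc1 (0.963), and Vax2 to Itgb4 (0.979). Tmem176a and Tmem176b had the same 3 closest genes, Gm2a, Sptssa and Abhd15, and an r of 0.988 with each other. Pcsk1 was closest to Ssr4 (0.927) and Gpr25 (0.921), and 5830411N06Rik to Cdk2ap2 and Itm2b (0.959 each), neither of them a gene used to name iNKT17-like cells. Between Pcsk1 and 5830411N06Rik r was 0.466, the lowest of all pairs among the 10.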

How the data were processed

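The authors deposited raw UMI counts per gene and cell barcode, not normalized; their processing notes name Cell Ranger 3.1.0, Seurat 3.1.4 and the build mm10. After the filters of the study, a kept cell had 500 genes or more but under 4100, 1000 UMIs or more, and mitochondrial UMIs under 6%. Cells were clustered in R 4.3.3 with Seurat 5.3.0 (2000 variable genes without the 10 genes, 30 components, mutual nearest neighbours over 20 neighbours, resolution 0.8) and classes were named "-like" from marker lists holding none of the 10. Of 15 clusters, the 2 left unnamed and the double positive thymocyte-like one entered no comparison. Scrublet (scanpy 1.11.5, Python 3.11.15) marked at most 5 cells per library by its own threshold, so this failed and doublets stayed in. The 10 genes and the gene lists were chosen with earlier results of these data known.

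Cells are not replicates. Counts were summed per library and class (707758 to 18845370 UMIs) and genotypes compared with edgeR 4.0.16 (filterByExpr, TMM, two-sided quasi-likelihood test, Benjamini-Hochberg over all genes of the class); a call is an adjusted p under 0.05. On simulated counts the iNKT17-like fit over 7557 genes recovered 93.8% of 97 changes of 2 and 54.1% of 98 changes of 1 on the log2 scale. The simulated dispersion was a set value, not one estimated from these libraries. Far more genes were changed than the 5 called in the measured counts, which makes the adjusted threshold easier to pass. These percents may therefore be too high for the measured counts. The labels give 1 mouse per library. CPM are UMIs per 1000000 UMIs of the class in that library, unscaled, and intervals are exact 95% and cover counting error only. Named genes are the 10 genes, called genes of the fixed lists, the 3 most alike genes of each and the 10 nearest 5830411N06Rik. Positions are from GENCODE vM21 (GRCm38), which matched 30934 of 31053 gene identifiers. Alternatives were DESeq2 1.42.0, no count filter, each library left out, a replicate block, other clusterings, doublet, cell and gate filters and other thinning depths. Some of the most alike genes, and a planned gate on marker genes that a gate on Ccr6 and Il23r replaced, are not reported here.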

Additional observations from a re-analysis of the deposited data

Results flagged for a closer look

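The genotype difference of 5830411N06Rik pointed one way in cycling-like cells and the other way elsewhere, and in each of the 4 classes the genotypes did not overlap. Its log2 difference of Hivep3-/- over C57BL/6 was -0.67 in cycling-like cells, against 2.05 in iNKT1-like, 1.52 in iNKT2-like and 1.87 in iNKT17-like cells. The difference between cycling-like cells and the other classes was not tested. The cycling-like value did not pass (edgeR adjusted p = 0.294). It changed sign at clustering resolution 1.2 (0.04) and with no correction between libraries (0.23). By cluster the genotypes overlapped in clusters 6 and 10. In cluster 11 the level was 9.54 and 9.28 CPM in C57BL/6 and 0 and 1.49 CPM in Hivep3-/-, without overlap. Cluster 13 held 0 UMIs in the 11 and 12 cells of C57BL/6, and 5 and 2 UMIs (16.6 and 8.92 CPM) in Hivep3-/-.

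Cells that entered no comparison also held UMIs of the 10 genes, some higher and some lower in Hivep3-/- than in C57BL/6. Tmem176b, for example, was lower in unnamed cluster 7, at 3.14 and 5.41 CPM in Hivep3-/- against 11.7 and 22.0 CPM in C57BL/6. In unnamed cluster 3, led by Klra3, Izumo1r and Cxcr3, 5830411N06Rik stood at 62.9 and 72.5 CPM in Hivep3-/- (mean 67.7) against 10.7 and 12.0 CPM in C57BL/6. Blk had a mean of 4.74 CPM in Hivep3-/- in the same cluster, which rests on 11 and 7 UMIs. C57BL/6 stood at 3.80 and 4.01 CPM, on 11 UMIs each. In unnamed cluster 7 Sdc1 had a mean of 10.6 CPM in Hivep3-/- (34 and 33 UMIs). C57BL/6 stood there at 4.59 and 8.26 CPM, on 9 and 3 UMIs. In the double positive thymocyte-like cluster, 5830411N06Rik had a mean of 157 CPM in Hivep3-/-, which rests on 5 and 4 UMIs. C57BL/6 stood at 24.6 and 0 CPM in this cluster, on 4 and 0 UMIs.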

How the results depend on the processing

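All log2 differences of the 10 genes kept their direction wherever either fit called them. Of those not called, some changed sign. In cycling-like cells 5830411N06Rik became 0.041 at resolution 1.2 and 0.23 with no correction between libraries, which also turned Tmem176a (0.41) and Sdc1 (-0.023, and -0.075 in iNKT2-like cells). Without 1 library Tmem176a ranged from -0.79 to 0.77 in cycling-like, Blk from -2.26 to 0.34 in iNKT2-like and Serpinb1a from -0.27 to 0.45 in iNKT1-like cells. In iNKT17-like cells the ranges were -0.38 to 0.079 for Blk, -0.40 to 0.082 for Serpinb1a, -0.080 to 0.46 for Tmem176a, -0.057 to 0.42 for Tmem176b, -0.17 to 0.031 for Il17re and -0.26 to 0.19 for Il1r1. There Il1r1 became 0.002 without the top doublet scores and 0.009 in cells of 1000 genes or more, and under the gate on Ccr6 and Il23r Blk became 0.19, Il17re 0.17 and Il1r1 0.19. The number of the 10 genes called was 3 in cycling-like cells, 1 with no correction between libraries and 0 to 3 without 1 library. In iNKT2-like cells it was 1, against 2 with DESeq2, with no low-count filter and under the replicate block, 0 with no correction between libraries and 1 to 2 without 1 library. In iNKT1-like cells it was 1, against 3 with no low-count filter and under the replicate block and 1 to 3 without 1 library, where the genes gained were Tmem176a and Tmem176b. The replicate numbers are shared by the genotypes but not said to pair mice, and deviations of same-numbered libraries correlated at 0.111 to 0.184, so the block is an alternative only. In the interaction 0 genes were called, against 1 at resolution 0.4, 3 with no low-count filter and 0 to 3 without 1 library. Over all genes, calls ranged from 23 to 314 in stage 0-like, 187 to 1154 in cycling-like, 31 to 478 in iNKT2-like, 5 to 95 in iNKT17-like and 20 to 480 in iNKT1-like cells. The median share of UMIs in iNKT17-like cells was 75.1%, and 42.8% in cells with 2 or more UMIs over Ccr6 and Il23r, a gate that takes fewer cells and under which 1 of the 10 genes was called between genotypes in place of 3, with Pcsk1 (log2 difference -2.21, edgeR adjusted p = 0.108) and Vax2 (-1.75, edgeR adjusted p = 0.199) no longer called. The median percent of iNKT17-like cells with a UMI was 27.2% at 2000 UMIs, 36.6% at 3000 and 63.6% unthinned, since more UMIs are read. This gate and the removal of cells with B cell markers were chosen after seeing the data. Causes of the other changes were not tested.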
